A study of Homo sapiens with 12 samples.

Results

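A set of 8 genes was followed through the RNA sequencing of 3 mantle cell lymphoma (MCL) lines treated with ironomycin, ibrutinib or both. They are PDIA2 (ENSG00000185615), FAM114A1 (ENSG00000197712), MTSS2 (ENSG00000132613), SYTL1 (ENSG00000142765), ADAMTSL2 (ENSG00000197859), HID1 (ENSG00000167861), ADGRG1 (ENSG00000205336) and CDHR3 (ENSG00000128536). The 8 were listed by name out of 63677 genes in the count table, as large rises with ironomycin alone or with both drugs, so their values in those comparisons are given as a description, without a test. Over the 3 lines 7 of the 8 were higher with ironomycin. CDHR3 was lower, not higher, in the ironomycin libraries of JEKO1 and MAVER1 and held at most 1 read in JVM2. All 8 genes passed the filter on low counts, as did 18674 genes in all.

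JEKO1, JVM2 and MAVER1 are established MCL lines, and each gave 1 library per treatment after 48 h, 12 in all. The 4 groups of 3 libraries were a control, each drug alone and the drugs combined. Ironomycin, an iron-sequestering derivative of salinomycin, was given at 50 nM to JEKO1 and at 250 nM to JVM2 and MAVER1. Ibrutinib, an inhibitor of Bruton's tyrosine kinase (BTK), was given at 0.5 μM to JEKO1, 1.5 μM to JVM2 and 6.25 μM to MAVER1. JVM2 was also grown with less serum than the other lines. Each line had its own combination of drug doses, so differences between lines and differences of dose cannot be told apart. Library totals ran from 35448523 to 38630809 reads. The 12 markers of other cells summed to 5.35 to 56 CPM (reads scaled to a common library size). The 11 markers of B cells and MCL summed to 2390 to 6550 CPM. CCND1 made up much of that sum in JEKO1 (2180 to 3510 CPM) and MAVER1 (4250 to 4830 CPM). SOX11, a marker of most MCL, had no reads in JVM2, and CD5, of the same list, had 0.028 to 0.0549 CPM there.

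Most of these genes serve membrane traffic, secretion or contact with the outside of the cell. PDIA2 belongs to the protein disulfide isomerases, enzymes of the endoplasmic reticulum (ER) that form and rearrange disulfide bonds while secreted proteins fold. SYTL1, a synaptotagmin-like protein, binds RAB27 on vesicles that move to the plasma membrane, and HID1 acts at the Golgi in the making of dense-core secretory granules. ADAMTSL2 is a secreted matrix glycoprotein without protease activity. ADGRG1, also called GPR56, is an adhesion G protein-coupled receptor, and CDHR3 is a cadherin-related surface protein of airway epithelium. MTSS2 has a domain that bends membranes and binds actin.

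The promoter windows of 4 genes are shown as examples and do not stand for the set. Those of PDIA2, MTSS2 and SYTL1, genes higher with ironomycin, held motif matches. That of CDHR3, the gene lower with it, held none. The window of ADAMTSL2, a gene higher with ironomycin, held none either and is not printed. Whether the motifs bear on the response was not tested. A match is a description of letters and not a site of binding. RefSeq promoter windows on GRCh38.p14, 250 bases before and 50 after a start site, were given for 7 of the 8 genes in 9 windows. The windows printed are chr16:282914-283213 on the plus strand for PDIA2, chr16:70686004-70686303 on the minus strand for MTSS2, chr1:27341772-27342071 on the plus strand for SYTL1 and chr7:105963014-105963313 on the plus strand for CDHR3. Capitals mark the matches to the motifs searched, and each line reads 5′ to 3′ along the gene's strand.
PDIA2: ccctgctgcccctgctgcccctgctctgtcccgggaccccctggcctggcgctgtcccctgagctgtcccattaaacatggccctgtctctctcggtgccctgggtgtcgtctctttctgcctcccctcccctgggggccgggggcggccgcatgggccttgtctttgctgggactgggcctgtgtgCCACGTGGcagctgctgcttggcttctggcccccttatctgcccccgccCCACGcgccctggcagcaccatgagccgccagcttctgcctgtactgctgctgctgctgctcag
MTSS2: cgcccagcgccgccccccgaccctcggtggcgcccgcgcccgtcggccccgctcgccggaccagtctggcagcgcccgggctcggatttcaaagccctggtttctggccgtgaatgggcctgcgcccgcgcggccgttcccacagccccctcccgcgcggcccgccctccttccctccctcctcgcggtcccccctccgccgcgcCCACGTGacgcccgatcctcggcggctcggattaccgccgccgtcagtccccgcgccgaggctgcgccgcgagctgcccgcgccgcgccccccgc
SYTL1: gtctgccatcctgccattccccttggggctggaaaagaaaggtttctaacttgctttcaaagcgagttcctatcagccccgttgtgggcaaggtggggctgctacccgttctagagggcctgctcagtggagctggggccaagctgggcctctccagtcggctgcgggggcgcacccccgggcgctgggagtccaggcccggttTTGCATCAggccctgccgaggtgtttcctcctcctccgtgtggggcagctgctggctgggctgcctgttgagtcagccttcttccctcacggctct
CDHR3: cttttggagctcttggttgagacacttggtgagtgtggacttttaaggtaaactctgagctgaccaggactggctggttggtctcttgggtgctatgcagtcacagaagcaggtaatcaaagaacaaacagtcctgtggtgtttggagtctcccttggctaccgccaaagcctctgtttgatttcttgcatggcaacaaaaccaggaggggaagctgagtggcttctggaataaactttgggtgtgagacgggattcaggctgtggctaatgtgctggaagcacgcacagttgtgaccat
In all 6 short motifs were searched on both strands. They were both parts of the ER stress element (CCAAT and CCACG), the ATF4/CHOP composite element (TGATGNAA), the cAMP response element core (TGACGT), the E-box (CACGTG) and the antioxidant response element core (TGACNNNGC). Of 35116 windows, 34.6% held CCAAT, 38.1% CCACG, 3.62% TGATGNAA, 7.98% TGACGT, 7.26% CACGTG and 13.3% TGACNNNGC. The PDIA2 window held CACGTG at -62, overlapped by CCACG on both strands, and a further CCACG at -14. The MTSS2 window held CACGTG at -44, overlapping CCACG at -45. The SYTL1 window held TTGCATCA at -46, the opposite strand of TGATGNAA. FAM114A1 held CCACG 3 times on the opposite strand, and of the 3 windows of ADGRG1 1 held CCACG and another TGACNNNGC. The windows of CDHR3 and ADAMTSL2 held none of the 6. Guanine and cytosine made up 49.7% of the CDHR3 window, 59.7% to 66.0% of those of ADGRG1 and 63.7% of that of SYTL1. They made up 69.0% to 80.0% of those of PDIA2, MTSS2, FAM114A1 and ADAMTSL2, with a median of 58.7% over all windows.

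PDIA2, the disulfide isomerase, had the largest change of the 8 when fitted over the lines, though ADGRG1 had a higher ratio of ironomycin to control in JEKO1 and HID1 in MAVER1. In JEKO1 it had 622 reads in the control, 10446 after ironomycin, 390 after ibrutinib and 17364 after both drugs. In MAVER1 the same treatments gave 14, 218, 8 and 393 reads. In JVM2 they gave 0, 1, 1 and 3 reads. Both ironomycin libraries stood far above both others in JEKO1 and MAVER1, while in JVM2 the gene stayed at the limit of detection. After scaling by the trimmed mean of M-values (TMM), the ratio of ironomycin to control was 16.0 in JEKO1 (exact 95% counting interval 14.7 to 17.4) and 15.1 in MAVER1 (8.82 to 28.1). These intervals, like all ratios within a line given here, cover counting error only. The lines started far apart and had overlapping ratios. Over the 3 lines the fitted log2 fold change was 3.96 ± 0.18 (standard error, SE, n = 3) with ironomycin and 4.73 ± 0.18 with both drugs, the 6th largest of 18674 genes each time. With so few reads JVM2 weighed little in this fit, and the ironomycin value was 3.95 without that line.

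HID1, the granule factor, started low in all lines and separated them after treatment. In JEKO1 it had 78 reads in the control, 937 after ironomycin, 91 after ibrutinib and 2127 after both drugs. In MAVER1 it had 68, 1211, 81 and 3428 reads. In JVM2 it had 42, 57, 39 and 63 reads. The ironomycin libraries of JVM2 were the higher ones too, but by a small margin. The ratio of ironomycin to control was 11.4 in JEKO1 (9.07 to 14.6), 17.3 in MAVER1 (13.5 to 22.4) and 1.31 in JVM2, whose interval of 0.861 to 1.99 included no change. The fitted log2 fold change was 3.00 ± 0.80 (SE, n = 3) with ironomycin and 4.16 ± 0.81 with both drugs, with the widest SE of the 8.

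ADGRG1, the adhesion receptor, behaved in a similar way but also moved in JVM2. Its reads in JEKO1 were 90 in the control, 1675 after ironomycin, 197 after ibrutinib and 3377 after both drugs. In MAVER1 they were 17, 245, 12 and 558. In JVM2 they were 72, 202, 46 and 161. Within every line both ironomycin libraries exceeded both libraries without it. The ratio of ironomycin to control was 17.7 in JEKO1 (14.3 to 22.2), 14.0 in MAVER1 (8.57 to 24.4) and 2.70 in JVM2 (2.05 to 3.58). Its fitted change was 3.00 ± 0.66 on the log2 scale (SE, n = 3) with ironomycin and 3.80 ± 0.68 with both drugs.

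SYTL1, the RAB27 effector, had a similar ratio in all 3 lines although its level did not start alike. In JEKO1 it had 1866 reads in the control, 5425 after ironomycin, 1592 after ibrutinib and 12276 after both drugs. In MAVER1 it had 2746, 6886, 2441 and 12659 reads. In JVM2 it had 31, 82, 15 and 81 reads. The ratio of ironomycin to control was 2.77 in JEKO1 (2.63 to 2.92), 2.44 in MAVER1 (2.33 to 2.55) and 2.55 in JVM2 (1.66 to 3.98). With both drugs the ratio to control was 6.20 in JEKO1, 4.40 in MAVER1 and 2.47 in JVM2, so that JVM2 alone held no more with both drugs than with ironomycin. Over the lines its log2 fold change was 1.41 ± 0.20 with ironomycin and 2.21 ± 0.20 with both drugs (SE, n = 3).

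ADAMTSL2, the matrix glycoprotein, had its highest reads with both drugs in every line. Its reads in JEKO1 were 82 in the control, 229 after ironomycin, 100 after ibrutinib and 494 after both drugs. In MAVER1 they were 245, 561, 208 and 882. In JVM2 they were 2, 12, 3 and 18, so few that the ratio of 5.77 to control had an interval of 1.29 to 53.1. The ratio was 2.66 in JEKO1 (2.06 to 3.46) and 2.22 in MAVER1 (1.91 to 2.60). Over the lines ADAMTSL2 had a fitted log2 fold change of 1.33 ± 0.20 (SE, n = 3) with ironomycin and 2.16 ± 0.20 with both drugs.

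FAM114A1 and MTSS2 were the members whose reads were highest with ironomycin alone. FAM114A1 had 54 reads in the JEKO1 control, 107 after ironomycin, 26 after ibrutinib and 81 after both drugs. It had 63, 303, 59 and 234 reads in JVM2, and 124, 436, 119 and 276 in MAVER1. Its ratio of ironomycin to control was 4.63 in JVM2 (3.52 to 6.17), 1.89 in JEKO1 (1.35 to 2.67) and 3.42 in MAVER1 (2.79 to 4.20). MTSS2, the membrane-bending protein, had 522, 1820, 419 and 1582 reads in JEKO1 and 329, 901, 198 and 570 in MAVER1. In JVM2 it had 0, 1, 1 and 2 reads. Its ratio of ironomycin to control was 3.32 in JEKO1 (3.01 to 3.67) and 2.66 in MAVER1 (2.34 to 3.03). The fitted log2 fold changes with ironomycin were 1.65 ± 0.24 for FAM114A1 and 1.56 ± 0.19 for MTSS2 (SE, n = 3), and with both drugs 1.15 for each. JVM2 weighed little in the MTSS2 fit, whose ironomycin value was 1.54 without that line.

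CDHR3, the cadherin-related protein, went the other way. It had 3862 reads in the JEKO1 control, 3005 after ironomycin, 4925 after ibrutinib and 2768 after both drugs. In MAVER1 it had 150, 16, 246 and 19 reads. In JVM2 it had 0, 0, 1 and 1 reads. The libraries with ironomycin were the lower ones in both lines that expressed it, by a small factor in JEKO1 and by a large one in MAVER1. The ratio of ironomycin to control was 0.741 in JEKO1 (0.706 to 0.777) and 0.104 in MAVER1 (0.0577 to 0.174). The fitted log2 fold change over the lines was -1.19 ± 0.55 (SE, n = 3) with ironomycin and -1.26 ± 0.55 with both drugs. The ironomycin value rested on which lines entered, at -3.22 without JEKO1, -1.13 without JVM2 and -0.44 without MAVER1, and was -0.48 with no block for the line. By fitted change it ranked 18533 of 18674 genes with ironomycin. In a pool of cells, more transcript per cell and more cells with the transcript cannot be told apart, for this gene and for the others.

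**Figure D1:**
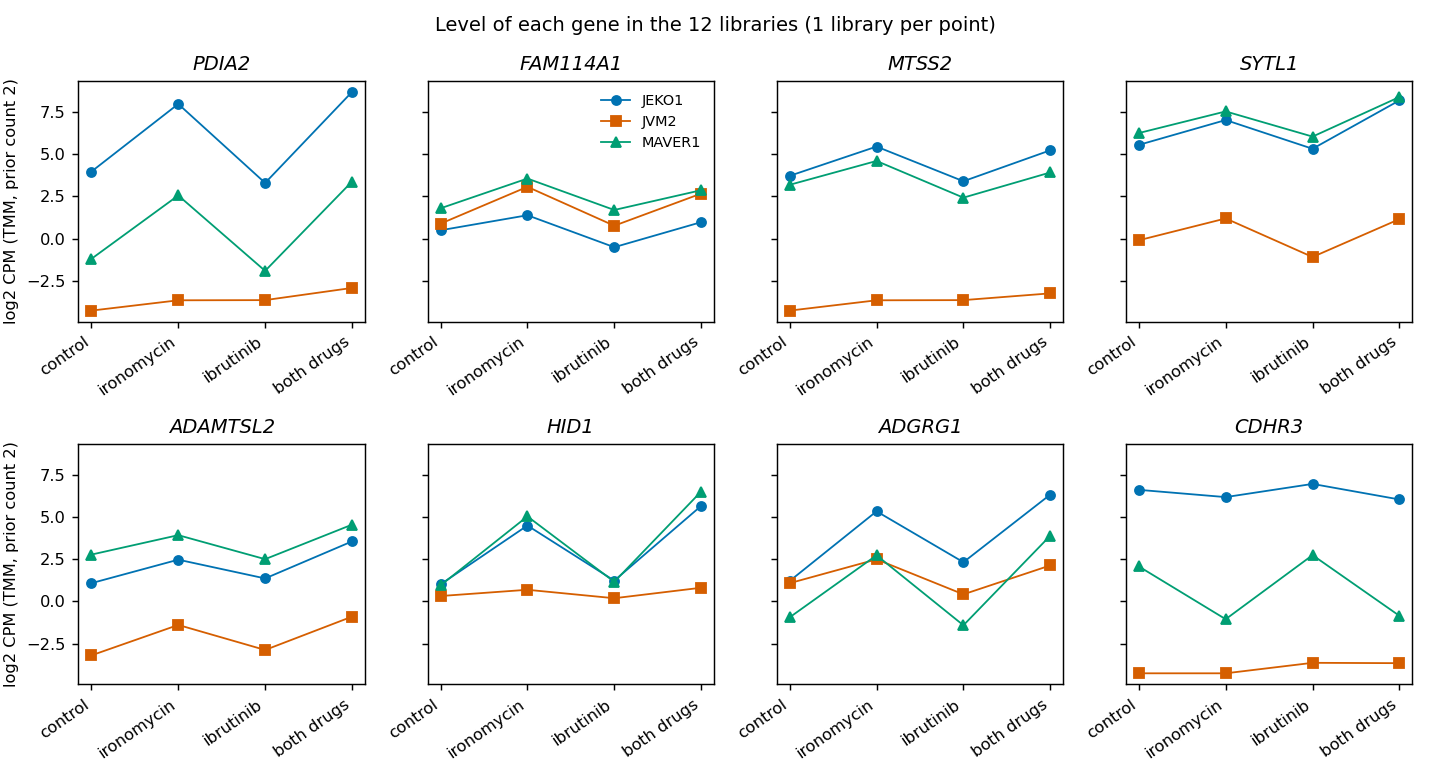
Level of each of the 8 genes (log2 CPM after TMM scaling, vertical axis) under the 4 treatments (horizontal axis), with 1 point per library and lines joining the 4 libraries of a cell line. The 7 other genes peak in the ironomycin libraries of JEKO1 and MAVER1, while CDHR3 dips there, and PDIA2, MTSS2 and CDHR3 lie at the bottom of the scale in JVM2.

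A gene was called when edgeR's quasi-likelihood test gave a Benjamini-Hochberg adjusted p under 0.05 and the log2 fold change was 1 or more in size. By this count 5 members were higher with ironomycin than in the control, where 0.129% of all tested genes were (0.214% in either direction). HID1 and ADGRG1 were the members outside that count with larger fitted changes than 4 of the 5 inside it. With both drugs against control 7 members were higher, where 4.81% of all genes were (1.48% were lower), and with both drugs against ibrutinib 7 were higher, where 3.91% were. CDHR3 was the 1 member lower in the last comparison, where 0.744% of all genes were. It stayed called there with no filter or with relative log expression factors as the scale. It was not called with DESeq2, library totals, no replicate block, the 6 libraries of those groups alone, or any 1 line left out. The members were picked on these libraries, and nothing is read from these counts. The median log2 fold change of the 8 was 1.60 with ironomycin, 2.18 with both drugs against control and 2.34 with both drugs against ibrutinib, against 0.03, 0.05 and 0.05 over all tested genes. The comparisons share their control and combination libraries. With library totals in place of TMM the calls over all genes were 54 higher and 15 lower for ironomycin, against 24 and 16, and 1266 higher and 197 lower for both drugs against control, against 898 and 277.

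**Figure D2:**
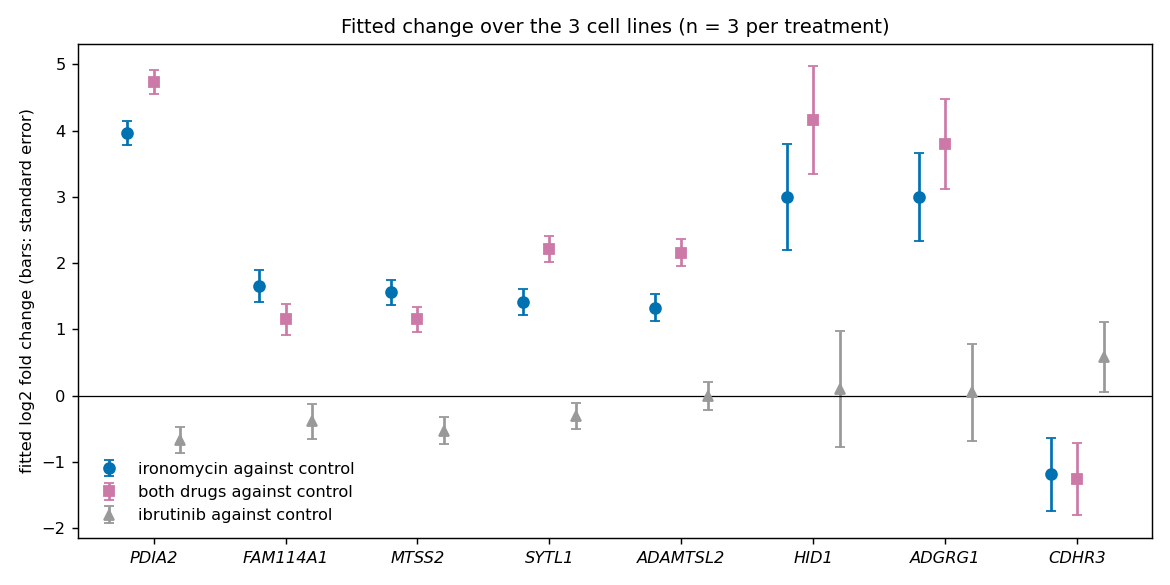
Fitted log2 fold change against control for each gene (points) with its standard error (bars), over the 3 cell lines, for ironomycin, both drugs and ibrutinib. With ironomycin the points run from -1.19 for CDHR3 to 3.96 for PDIA2, and with ibrutinib alone they run from -0.67 to 0.58.

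The effect of adding ibrutinib to ironomycin was then compared, a contrast that the choice of genes did not use although its libraries were used. PDIA2, SYTL1, ADAMTSL2, HID1 and ADGRG1 had higher fitted values with both drugs than with ironomycin alone, FAM114A1 and MTSS2 had lower ones, and CDHR3 had a value of -0.07. None of these differences passed. The log2 difference was 0.77 ± 0.14 for PDIA2 (SE, n = 3, 95% interval 0.46 to 1.08, adjusted p = 0.206 by edgeR's quasi-likelihood test). It was 0.80 ± 0.19 for SYTL1 (adjusted p = 0.367) and 0.83 ± 0.19 for ADAMTSL2 (adjusted p = 0.337). These genes had intervals that left out 0 before adjustment over all genes. FAM114A1 and MTSS2, which were lower, had intervals that barely left out 0 (unadjusted p = 0.0497 and 0.0495 by edgeR's quasi-likelihood test). HID1 had the largest difference, 1.15 ± 0.63, but its interval of -0.23 to 2.54 was wide, and the ratio was 2.25 in JEKO1, 2.78 in MAVER1 and 1.08 in JVM2. ADGRG1 had 0.81 ± 0.54 (adjusted p = 0.587), with a ratio of 1.99 in JEKO1, 2.24 in MAVER1 and 0.782 in JVM2. FAM114A1 was lower with both drugs in all 3 lines, at ratios of 0.749, 0.758 and 0.622 in JEKO1, JVM2 and MAVER1 and a log2 difference of -0.50 ± 0.23 (adjusted p = 0.472). MTSS2 had ratios of 0.860 in JEKO1 and 0.622 in MAVER1 and a log2 difference of -0.41 ± 0.19 (adjusted p = 0.472). For CDHR3 it was -0.07 ± 0.54 (-1.26 to 1.11). In this comparison 0% of the 18674 genes were called, with 1970 at an unadjusted p under 0.05, and DESeq2 called 23 genes, no member among them. Fitted on the 6 libraries of these groups alone, HID1 passed, with a log2 difference of 1.15 (edgeR adjusted p = 0.0401), while PDIA2 had a lower adjusted p of 0.0244 at a difference of 0.76, below the fold threshold. SYTL1 had an adjusted p of 0.038 by DESeq2 at a difference of 0.74, also below it. The sign of the CDHR3 value was not stable, at 0.01 with library totals, 0.25 by DESeq2 and 0.35 without JEKO1.

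No member passed with ibrutinib alone, and the wide intervals of HID1, ADGRG1 and CDHR3 do not show that these genes stayed the same. The fitted log2 fold change was -0.67 ± 0.19 for PDIA2 (SE, n = 3, 95% interval -1.09 to -0.25), -0.53 ± 0.20 for MTSS2 (-0.96 to -0.09) and -0.39 ± 0.26 for FAM114A1 (-0.96 to 0.18). It was -0.31 ± 0.20 for SYTL1, -0.01 ± 0.21 for ADAMTSL2, 0.10 ± 0.88 for HID1 (-1.85 to 2.05), 0.05 ± 0.73 for ADGRG1 (-1.55 to 1.65) and 0.58 ± 0.53 for CDHR3 (-0.59 to 1.75). All 8 adjusted p-values were 1 by edgeR's quasi-likelihood test. Of all genes 0% were called, with 680 at an unadjusted p under 0.05, and DESeq2 called 11. The fitted ADGRG1 value changed sign without JEKO1 (-0.65) and by DESeq2 (-0.14). That of ADAMTSL2 was 0.01 with library totals and 0.30 without MAVER1. Within lines ADGRG1 had opposite ratios, since it was 2.19 times its control in JEKO1 (1.70 to 2.84) and 0.626 times in JVM2 (0.423 to 0.919). HID1 had ratios near 1 in each line despite its wide fitted interval. They were 1.17 in JEKO1 (0.853 to 1.60), 0.910 in JVM2 (0.573 to 1.44) and 1.16 in MAVER1 (0.831 to 1.63). CDHR3 was higher with ibrutinib in JEKO1 (ratio 1.28, 1.22 to 1.33) and in MAVER1 (1.60, 1.30 to 1.97), the lines in which it was lower with ironomycin. The ibrutinib doses differed between lines, so these ratios are set side by side only.

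Whether the ironomycin effect differed between lines was tested with a model in which the ibrutinib libraries stood in for replicates. The members were picked on libraries that this test uses, so it is not independent of their choice. HID1, ADGRG1 and CDHR3 differed, 3 of the 8 members, where 7.97% of all tested genes did. HID1 had a fitted log2 effect of 4.02 ± 0.32 in JEKO1, 4.81 ± 0.32 in MAVER1 and 0.51 ± 0.44 in JVM2 (SE, adjusted p = 0.00391 by edgeR's quasi-likelihood test). ADGRG1 had 4.05 ± 0.36, 4.69 ± 0.51 and 1.58 ± 0.43 in the same order (adjusted p = 0.0286). Both were smallest in JVM2. CDHR3 had -0.67 ± 0.14 in JEKO1, -3.51 ± 0.27 in MAVER1 and -0.04 ± 1.86 in JVM2 (adjusted p = 0.00153). Its difference lay between JEKO1 and MAVER1, since JVM2 had at most 1 read, and it had been noted in these data before the gene was listed. For the other 5 members the adjusted p-values were 0.174 for FAM114A1, 0.544 for MTSS2, 0.675 for ADAMTSL2, 0.775 for SYTL1 and 0.891 for PDIA2. With 1 to 3 reads behind the JVM2 effects of PDIA2 (1.73 ± 2.59) and MTSS2 (1.34 ± 1.35), a difference there was not detectable at this depth. Without JVM2 the HID1 difference had an adjusted p of 0.356 and that of ADGRG1 0.444 (edgeR), and without MAVER1 that of ADGRG1 was 0.0716. Without JEKO1 the CDHR3 difference had 0.333, and without MAVER1 0.945.

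**Figure D3:**
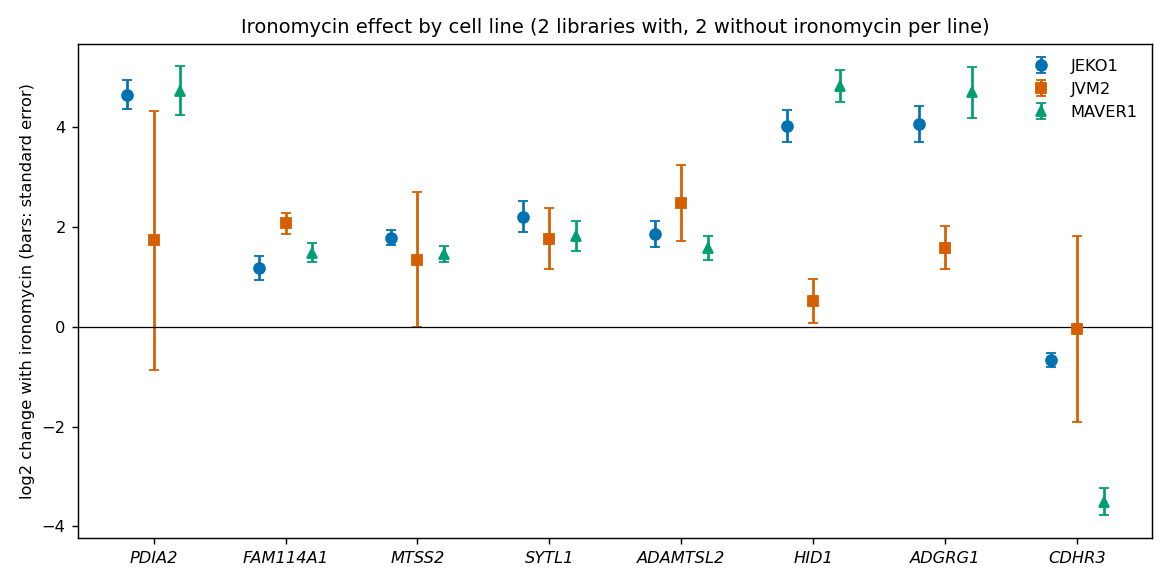
Fitted log2 change with ironomycin (vertical axis) for each gene (horizontal axis) in JEKO1, JVM2 and MAVER1, with standard errors as bars, from 2 libraries with and 2 without ironomycin per line. HID1 and ADGRG1 are lowest in JVM2, CDHR3 is lowest in MAVER1 at -3.51, and the bars of PDIA2, MTSS2 and CDHR3 in JVM2 are wide, where these genes had at most 3 reads.

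Before ironomycin each gene but HID1 differed between at least 1 pair of lines, and large shares of all tested genes differed too. These tests came from the same model, so a control and an ibrutinib library stood in for replicates of each line. Their p-values do not measure a spread between repeat libraries. Between JVM2 and JEKO1 6 members differed, where 45.4% of all genes did. Between MAVER1 and JEKO1 5 did, where 33.5% of all genes did, and between MAVER1 and JVM2 5 did, where 39% did. CDHR3 was lower in MAVER1 than in JEKO1 by a log2 difference of -4.36 (SE 0.17, adjusted p = 1.17e-09), and lower still in JVM2, where the libraries without ironomycin held 0 and 1 reads against 3862 and 4925 in JEKO1 (adjusted p = 2.51e-11). PDIA2 was lower in MAVER1 than in JEKO1 (-5.42, SE 0.46, adjusted p = 7.48e-07) and in JVM2 than in JEKO1, with 0 and 1 reads against 622 and 390 (adjusted p = 1.86e-07), all by edgeR's quasi-likelihood test. So few reads in JVM2 do not fix the size of these differences, and no fold is given for them. MTSS2 and SYTL1 were low in JVM2. MTSS2 was also lower in MAVER1 than in JEKO1, by a log2 difference of -0.74 ± 0.16 (SE, edgeR adjusted p = 0.00156) that lay below the fold threshold, and the value for SYTL1 was 0.70 ± 0.30 (adjusted p = 0.0559). ADAMTSL2 was highest in MAVER1 and lowest in JVM2, and all 3 of its pairs passed. In the fit ADGRG1 fell from JEKO1 to JVM2 to MAVER1, with the first step near the threshold (log2 difference of -1.04, edgeR adjusted p = 0.0485, with 0.0514 without MAVER1 and 0.124 by DESeq2). The controls of JEKO1 and JVM2 were close, at 90 and 72 reads (log2 CPM 1.21 and 1.08). Their ibrutinib libraries lay further apart, at 197 and 46 reads (2.32 and 0.42). The first step, counted among the 6, thus lay mostly in the ibrutinib libraries and not between untreated cells. FAM114A1 differed between MAVER1 and JEKO1 (1.75 ± 0.24). HID1 had no pair past the threshold, with differences from -0.89 to 0.82, although with library totals as the scale JVM2 was lower than JEKO1 (-1.07, edgeR adjusted p = 0.0411). PDIA2 between MAVER1 and JVM2 stood just outside, from 14 and 8 reads against 0 and 1 (edgeR adjusted p = 0.0544), and passed with no filter (0.049), with DESeq2 (0.00916) or without JEKO1 (0.00286).

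The members' relatives and partners were counted next. Of 106 other genes listed for the 8 families and partner groups, 77 were tested. With ironomycin 0 of the 77 passed by edgeR's quasi-likelihood test, where 0.214% of all genes did. At so low a share, 0 of 77 says little about these lists. Of the 77, 52 had a fitted value above 0, and their median log2 fold change was 0.09, beside 0.03 over all genes and 1.60 over the 8 members. The members were picked on this comparison and their relatives were not, so the gap between them describes the choice. The largest change among the 18 tested disulfide isomerases and partners of PDIA2 was that of ERO1B, an ER oxidase (0.90 ± 0.35 SE, adjusted p = 0.167). With both drugs against control 2 of the 77 rose and 3 fell, where 4.81% and 1.48% of all genes did, and the lists were not tested against other genes. ERO1B rose by 1.72 (adjusted p = 0.00724) and BAIAP2L2, a relative of MTSS2 with 1 to 34 reads per library, by 1.81 (adjusted p = 0.0306). ERP27, an ER protein with 8 to 34 reads, fell by 1.15 (adjusted p = 0.0285), and MTSS1, the closest relative of MTSS2, fell by 1.05 (adjusted p = 0.0123). ADGRG5, a receptor of the same group as ADGRG1, fell by 1.75 (adjusted p = 0.0202), against the 3.80 of ADGRG1. ERO1B (1.40, adjusted p = 0.0175), BAIAP2L2 (2.16, adjusted p = 0.0213) and ERP27 (-1.17, adjusted p = 0.0299) also passed with both drugs against ibrutinib. The largest ironomycin values in the other lists were 0.12 for FAM114A2, 1.15 ± 0.57 (SE) for BAIAP2L2, 0.55 for MLPH, 1.26 for ADAMTSL3, 0.61 for CCDC186 and 0.54 for CDHR2, none of which passed, and -1.59 for ADGRG5. ADAMTSL3 had 2 to 15 reads per library. The ironomycin effect differed between lines in 11 of the 77, where 7.97% of all genes did.

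**Figure D4:**
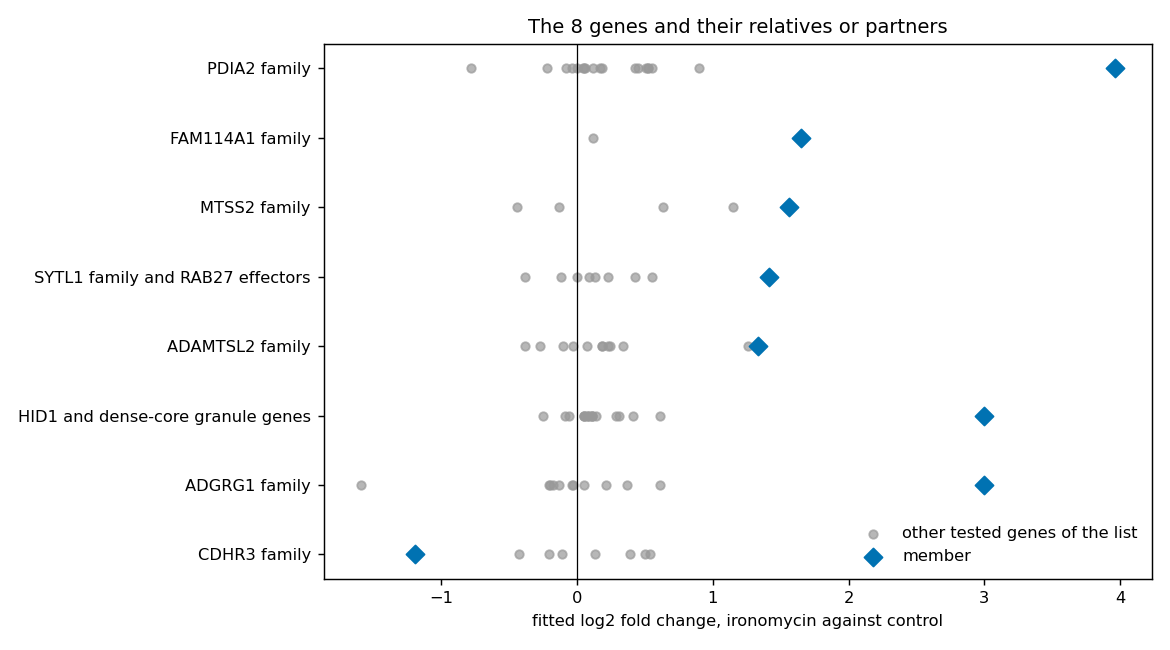
Fitted log2 fold change of ironomycin against control (horizontal axis) for each member (diamonds) and for the tested genes of its family or partner list (circles), 1 row per list. The diamonds of 7 genes lie to the right of all circles of their row, from 1.33 to 3.96, and CDHR3 lies to the left of its row at -1.19. The members were picked on this comparison, so the place of the diamonds beside the circles describes the choice.

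Across the 12 libraries the members moved together once each line's own mean was taken out. The 28 pairs had Pearson correlations from -0.823 to 0.975 with a median of 0.811, and the negative ones were those with CDHR3. These libraries include the ones the genes were picked on, so this describes the choice. The genes with the most similar pattern (of 11384 with a mean log2 CPM of at least 1, over 12 libraries) were HYOU1 (r = 0.987), ITPRIPL2 (0.984) and SEL1L (0.983) for PDIA2. HYOU1 is an ER chaperone and SEL1L a part of the ER's degradation machinery. For HID1 they were FBXO32 (0.995), a ubiquitin ligase subunit, HSPA13 (0.994), a chaperone of the ER, and FNDC3A (0.992). For ADGRG1 they were NFXL1 (0.991), INHBC (0.991) and SESN2 (0.989), a stress-inducible regulator of growth signals. MVD (0.966) and SQLE (0.961), enzymes of cholesterol synthesis, came with RAB18 (0.967) for FAM114A1. RASGRP3 (0.964), an activator of Ras proteins, PRR5 (0.956) and USP31 (0.946) came for MTSS2. SYTL1 was matched by UBE2Q2P13 (0.987), HSD17B7P2 (0.985) and MUC20-OT1 (0.983), and ADAMTSL2 by ZBED3 (0.985), SDHAP1 (0.984) and ZNF853 (0.981). For CDHR3 they were XXYLT1 (0.974), GNB1L (0.974) and FSD1 (0.960), with fitted log2 fold changes with ironomycin of -0.31, -0.40 and -0.68. A correlation does not weigh the size of a change. HYOU1, ITPRIPL2 and SEL1L had fitted ironomycin values of 0.73, 0.40 and 1.08, beside 3.96 for PDIA2. RAB18 had 0.14, beside 1.65 for FAM114A1. The largest value among these similar genes was 1.69 ± 0.55 (SE), for INHBC.

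The annotation used here (GENCODE on GRCh38) has a gene overlapping 4 of the members. MIR574 on the strand of FAM114A1 had 0 to 4 reads per library, and the antisense genes HID1-AS1 at HID1 and ENSG00000261633 at ADGRG1 had 0 to 2 each. ENSG00000279569, opposite MTSS2, was not analysed here. Strand was not stated for the counting, so reads of antisense partners could not be set apart.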

How the data were processed

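RNA was sequenced from 12 libraries, 3 MCL lines under 4 treatments. The authors deposited raw read counts for 63677 Ensembl genes, of which 52181 were named from the reference table. The processing notes list GRCh37, STAR and DESeq2. The counter, its strand setting and the annotation release were not given in the sources used here. The members and gene lists were chosen with earlier results of these data known. Genes were named by a rule: the members, family genes called in any treatment comparison or with the largest ironomycin change in their list, the 3 genes most correlated with each member, and overlapping genes.

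Counts were filtered with filterByExpr, scaled by TMM and fitted with edgeR 4.0.16 (R 4.3.3) over all 12 libraries, with treatment and cell line as terms. Effects by line came from a model of line, ironomycin within line and ibrutinib. Genes were called at a Benjamini-Hochberg adjusted p under 0.05 and a change of 1 or more on the log2 scale, and the difference between lines at the adjusted p alone. A prior count of 2 was used for log2 CPM. In the treatment comparisons the replicate is the cell line, so their p-values measure the spread between 3 lines given different doses. In the tests of baseline and of the difference between lines, libraries of a line with and without ibrutinib stood in for replicates. Those p-values measure departures from an ibrutinib effect shared by the lines, not a spread between repeats. No line had a repeat library. Same-numbered libraries came from the same line and deviated together (r from 0.926 to 0.976 in 18 pairs, against -0.705 to -0.127 in 48 pairs of different lines). Each treatment's mean was taken out first, which by itself pushes the values between different lines below 0. Scripts were tested on simulated data. The alternatives were other scaling factors, no filter, DESeq2 1.42.0, no replicate block, fewer libraries and leaving out each line. Figures were drawn with matplotlib.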

Additional observations from a re-analysis of the deposited data

Results flagged for a closer look

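The response to ironomycin differed between the cell lines in 3 of the genes, each by the test of the difference itself (edgeR's quasi-likelihood test on 2 coefficients). All 3 genes were picked on libraries that this test uses, so none of the 3 results is independent of the choice. HID1 had an adjusted p of 0.00391, with fitted log2 effects of 4.02 in JEKO1, 4.81 in MAVER1 and 0.51 in JVM2. ADGRG1 had 0.0286, with 4.05, 4.69 and 1.58. CDHR3 had 0.00153, with -0.67, -3.51 and -0.04, the last from at most 1 read per library. The CDHR3 difference had also been seen in these data before the gene was listed. Its adjusted p was 0.333 without JEKO1 and 0.945 without MAVER1. For HID1 the value was 0.356 without JVM2, and for ADGRG1 0.444 without JVM2 and 0.0716 without MAVER1. JEKO1 received 50 nM of ironomycin and the others 250 nM, and JVM2 was grown with less serum. The part of dose or serum in these differences was not tested.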

How the results depend on the processing

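No called value changed direction under the alternatives run. Values near 0 that were not called did: CDHR3 with both drugs against ironomycin (-0.07) was 0.01 with library totals, 0.25 by DESeq2 and 0.35 without JEKO1, and with ibrutinib ADGRG1 (0.05) was -0.14 by DESeq2 and -0.65 without JEKO1, and ADAMTSL2 (-0.01) was 0.01 with library totals and 0.30 without MAVER1. The CDHR3 change with ironomycin (-1.19) ran from -3.22 to -0.44 when a line was left out. The design had 1 library per line and treatment, so the lines and the pairing carry the precision: with no replicate block the median log2 fold change of the members was 1.69 with ironomycin, 2.17 with both drugs against control and 2.34 against ibrutinib, and 0 genes passed in any treatment comparison, with 182 at an unadjusted p under 0.05 for ironomycin (edgeR). The number of members with a higher value called for ironomycin against control was 5; it was 7 with DESeq2, with no filter or without JVM2, 2 with the 6 libraries of those groups, 0 without JEKO1 and 1 without MAVER1. For both drugs against control the 7 became 3 without JEKO1, 6 without JVM2, 2 without MAVER1 and 1 with 6 libraries, and for both drugs against ibrutinib 0, 7, 1 and 6. Over all genes ironomycin against control called 40, or 69 under library totals, 189 with no filter, 176 with DESeq2, 2 with 6 libraries, and 369, 3 and 1 leaving out JVM2, JEKO1 and MAVER1. Both drugs called 1175 against control (1877, 30 and 22 in that order of lines, 5 with 6 libraries) and 870 against ibrutinib (1439, 1 and 6, and 161 with 6 libraries). Both drugs against ironomycin called 0 genes, or 24 with no filter, 23 with DESeq2, 33 with 6 libraries and 7 without JVM2, and ibrutinib called 0, or 10, 11 and 12 under the first 3 of these and 1 without MAVER1. The difference between lines was called in 1488 genes, or 337, 2366 and 317 leaving out JVM2, JEKO1 and MAVER1. With both drugs against ironomycin, 1 member passed when only the libraries of those groups were fitted. The number of members whose ironomycin effect differed between lines ranged from 1 to 2 when a line was left out. With library totals the median log2 fold change of all genes moved to 0.18 for both drugs against control, 0.15 against ibrutinib and 0.10 for ironomycin. The cause was not tested. Genes with few reads in JVM2 (PDIA2, MTSS2, CDHR3) limit what that line can show.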
